A study of Rattus norvegicus with 12 samples.

Results

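Mural cells are the cells that wrap the walls of small vessels, pericytes on capillaries and smooth muscle cells on arterioles and venules. Their genes were followed here in the central nucleus of the amygdala (CeA) of rats after chronic intermittent ethanol (CIE). The group was defined by name, as the rows of the count table for *Pdgfrb*, *Rgs5*, *Kcnj8*, *Abcc9*, *Vtn*, *Notch3* and *Anpep* (pericyte genes) and *Acta2*, *Tagln* and *Myh11* (smooth muscle genes). These are 10 of 37209 genes listed. The definition uses names alone, but the genes were chosen with earlier results of these data known. Poly-A RNA-Seq gave 1 library for each of 6 CIE and 6 Control rats. All were male, wild type Sprague Dawley rats aged 14 to 16 weeks. The CIE rats breathed ethanol vapor every day for several weeks and were killed as the last vapor session ended. The Control rats breathed air only and were killed after their last air exposure. Each sample came from tissue punches of bulk CeA, so a lower value of a mural gene can stand for fewer mural cells or for less RNA per cell, and these cannot be told apart. Every sample title carries the suffix CIE, also in the air group, and the groups were therefore taken from the treatment label. The CIE rats carry the numbers 1 to 6 and the Control rats 7 to 12, so any influence of sample order cannot be told apart from CIE.

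Pericytes share a basement membrane with endothelial cells and are kept in place by platelet-derived growth factor B, which endothelial cells release and which acts on the receptor PDGFRB. Notch ligands on endothelial cells signal through NOTCH3 to maintain mural cells. Pericytes also carry an ATP-sensitive potassium (KATP) channel, whose pore is KIR6.1 (*Kcnj8*) and whose regulatory subunit is SUR2 (*Abcc9*). When it opens, the cell hyperpolarizes and the vessel relaxes. Smooth muscle cells instead are marked by contractile proteins, among them smooth muscle actin (*Acta2*), transgelin (*Tagln*) and smooth muscle myosin heavy chain (*Myh11*).

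Library totals lay between 62 and 78.4 M counts among CIE rats, with a median of 66.5, and between 39.1 and 95.6 among Control rats, with a median of 71.9. Neuronal genes of the CeA were present in every rat. The summed level of 7 such markers (*Prkcd*, *Penk*, *Crh*, *Nts*, *Tac1*, *Gad2*, *Slc32a1*) was 1053 to 2279 CPM (counts per 1000000, scaled with edgeR's TMM method) across CIE rats and 1217 to 2676 CPM across Control rats. Of the 10 mural genes, 9 had counts in every rat and passed the filter on low counts. *Myh11* was listed at 0 in all 12 rats. So was *Nde1*, its neighbour on the chromosome and a gene of dividing neural progenitors. In all, 886 of 16631 protein-coding symbols were listed at 0 in every rat, among them other vessel genes (*Kcnmb1*, *Pln*, *Notch4*, *Gper1*) and *Ttr*. Whether smooth muscle myosin was expressed in these punches can therefore not be read from the file, and no fold change is given for *Myh11*.

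RefSeq promoter sequences (assembly GRCr8) were matched for 7 of the 10 genes, and not for *Pdgfrb*, *Tagln* and *Myh11*. The 300-base windows, 250 bases before and 50 bases after the start site, were searched on both strands for 3 motifs known from mural cell genes. These were the CArG box bound by serum response factor (CC, then 6 bases that are A or T, then GG), the letters TGGGAA at the core of sites for the Notch effector RBPJ, and the letters CATTCC of the MCAT element bound by TEAD factors. No CArG box in this strict form was found in the 7 windows, and 1.64% of all 33469 promoters held one. The strict form passes over stretches with a G or C among the 6 inner bases. The *Acta2* sequence below holds such stretches, ccctatatgg and ccttgtttgg, so it cannot be said to lack CArG-like letters. TGGGAA lay in 4 of the 7 (*Acta2*, *Anpep*, *Notch3* and *Vtn*), against 25.7% of all promoters. CATTCC lay in 2 of the 7 (*Acta2* and *Vtn*), against 14.2%. The bases upstream of the start are printed for both KATP subunits, which are neighbouring genes and whose levels are compared with each other further on, and for the pair of genes that held both RBPJ and MCAT letters. Capitals mark TGGGAA and CATTCC or their reverse complements, each sequence is written 5′ to 3′ on the strand of the gene, and the positions are those of GRCr8. The *Kcnj8* sequence is chr4:177246549-177246798 (minus strand) and that of *Abcc9* is chr4:177386349-177386598 (minus strand). The *Vtn* sequence is chr10:63892532-63892781 (plus strand) and that of *Acta2* is chr1:241172504-241172753 (minus strand).
Kcnj8: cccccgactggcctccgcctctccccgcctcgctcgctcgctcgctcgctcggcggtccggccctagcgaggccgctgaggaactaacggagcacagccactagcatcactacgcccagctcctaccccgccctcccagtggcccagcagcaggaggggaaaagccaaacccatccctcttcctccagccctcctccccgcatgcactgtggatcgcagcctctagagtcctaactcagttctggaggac
Abcc9: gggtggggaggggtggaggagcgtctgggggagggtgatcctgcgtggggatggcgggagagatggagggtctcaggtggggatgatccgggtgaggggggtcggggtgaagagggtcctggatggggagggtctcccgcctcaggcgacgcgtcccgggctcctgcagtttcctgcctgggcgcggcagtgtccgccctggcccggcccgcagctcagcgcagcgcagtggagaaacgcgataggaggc
Vtn: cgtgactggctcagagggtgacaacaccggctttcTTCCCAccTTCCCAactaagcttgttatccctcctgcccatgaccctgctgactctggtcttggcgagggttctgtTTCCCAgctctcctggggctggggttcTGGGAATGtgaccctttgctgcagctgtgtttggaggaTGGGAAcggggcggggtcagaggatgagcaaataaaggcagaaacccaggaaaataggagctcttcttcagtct
Acta2: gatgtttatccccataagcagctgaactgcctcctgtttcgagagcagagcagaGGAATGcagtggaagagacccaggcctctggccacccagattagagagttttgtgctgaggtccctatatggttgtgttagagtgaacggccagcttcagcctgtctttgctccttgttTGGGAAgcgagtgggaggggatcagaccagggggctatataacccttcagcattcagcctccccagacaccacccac
Neither KATP subunit held a motif in this window. *Vtn* held 5 copies of the RBPJ letters, the nearest beginning 74 bases before the start, and 1 of them overlapped its only MCAT match. In *Acta2* the RBPJ letters began 77 bases and the MCAT letters 196 bases before the start. These RBPJ letters share bases with the CArG-like stretch ccttgtttgg. These are matches of letters, and no binding was measured.

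Most pericyte genes had lower levels in the CIE group, whereas the contractile genes had no common direction. *Kcnj8* was the only mural gene past 5% FDR in edgeR's quasi-likelihood test with Benjamini-Hochberg adjustment over the 20944 genes tested, 1 of the 9 tested. Over all genes, 0.363% passed. At a nominal p value below 0.05, 6 of the 9 passed (*Pdgfrb*, *Rgs5*, *Kcnj8*, *Abcc9*, *Vtn* and *Anpep*), against 8.31% of all genes. All 6 were lower in the CIE group, against 4.31% of all genes that passed in that direction. *Notch3*, *Acta2* and *Tagln* did not pass. The median log2 fold change (CIE minus Control) was -0.45 for the 7 pericyte genes and -0.30 for all 9, while the median of all genes tested was 0.00096. The CIE and Control values overlapped in each of the 9 genes, and they did not overlap in 0.893% of all genes. DESeq2 and limma-voom with sample quality weights each called *Kcnj8* and *Pdgfrb* at 5% FDR. Both methods called more genes in general, 294 of 29452 in DESeq2 and 234 of 20944 in limma-voom, against 76 of 20944 in edgeR.

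**Figure D1:**
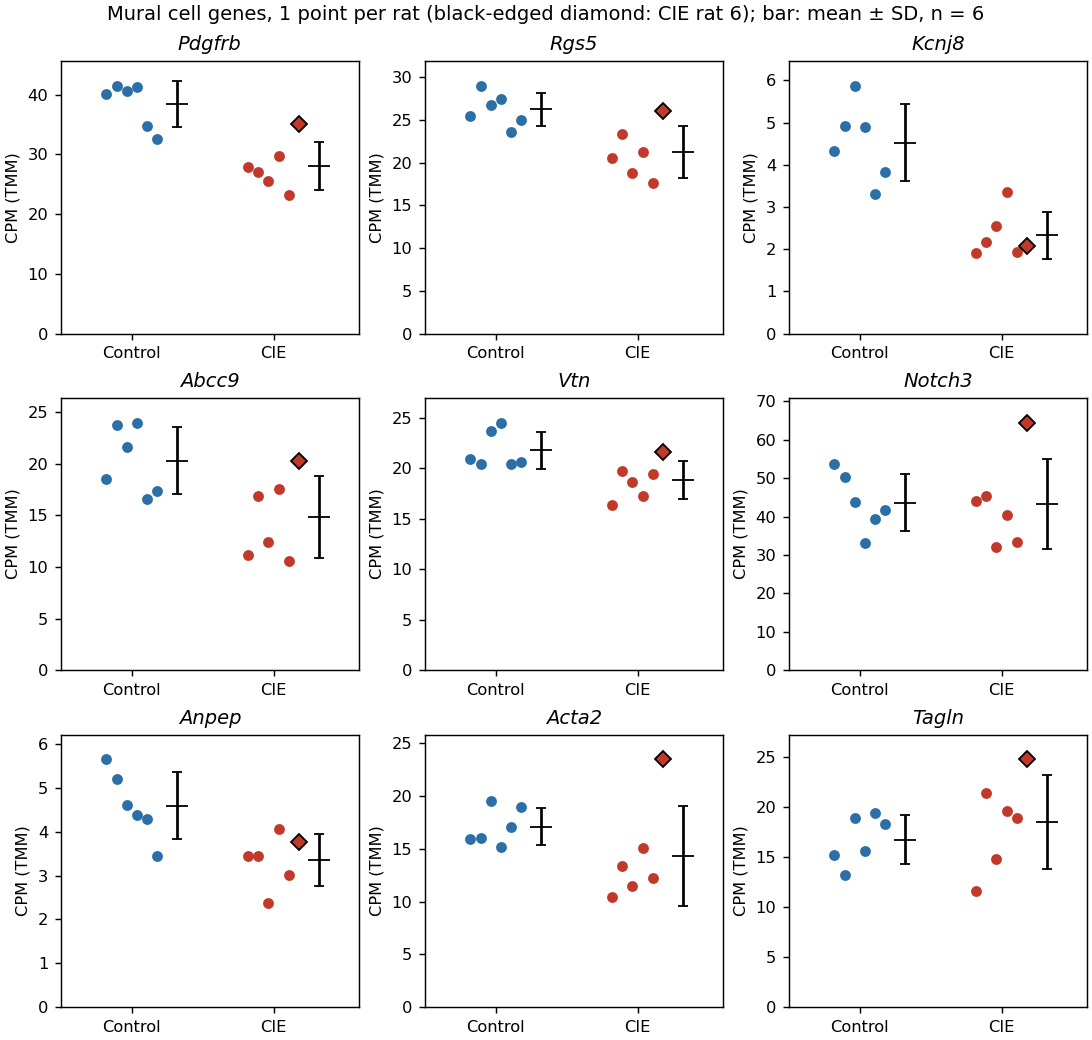
Normalized expression of the 9 mural genes with counts, in CPM with TMM normalization on the vertical axis, for Control (blue) and CIE (red) rats, 1 point per rat. Bars give the mean ± SD (n = 6), and the black-edged diamond is CIE rat 6, which sits highest among the CIE rats in 7 of the 9 genes.

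*Kcnj8* encodes the pore of the vascular KATP channel. Its level lay between 1.91 and 3.36 CPM across CIE rats, with a median of 2.12, and between 3.31 and 5.87 CPM across Control rats, with a median of 4.61. Among the CIE rats 5 of 6 lay below every Control rat, and the exception, CIE rat 4 at 3.36 CPM, lay just above Control rat 11 at 3.31 CPM. The CIE mean was 2.33 ± 0.555 CPM and the Control mean 4.53 ± 0.908 CPM (SD, n = 6 each). It fell by 0.96 on the log2 scale (SE 0.18, FDR 0.03 in edgeR's quasi-likelihood test, a ratio of 0.514). A two-sided exact permutation test of the difference in mean CPM gave p = 0.00433, where 0.00216 is the smallest p that 6 rats against 6 allow. This gene had few reads, between 124 and 474 counts per rat. Its FDR ranged from 0.0154 to 0.0948 with each rat left out in turn. It exceeded 5% without CIE rats 1, 2 or 5 (FDR 0.0797, 0.0848 and 0.081) and without Control rats 7, 8, 9 or 10 (FDR 0.0596, 0.0845, 0.0948 and 0.0583), and the log2 fold change stayed between -1.09 and -0.87. DESeq2 gave an FDR of 2.8e-05.

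*Abcc9*, the regulatory subunit of the same channel, lay between 10.6 and 20.3 CPM across CIE rats, with a median of 14.6, and between 16.6 and 24 CPM across Control rats, with a median of 20. The groups overlapped more than for *Kcnj8*, with 3 of 6 CIE rats below every Control rat. Its log2 fold change of -0.45 (SE 0.16) had an edgeR nominal p of 0.0156 and an FDR of 0.443, and the exact permutation test gave p = 0.0325. That exact permutation p was 0.0584 without Control rat 9 and 0.0606 without CIE rat 1, 3 or 5 or Control rat 8 or 10. Counts of *Kcnj8* were then divided by those of *Abcc9* within each rat, a ratio that does not depend on the scaling of libraries. This and 4 other ratios were chosen after the values of their genes were seen, so their p values describe differences already noticed and are no independent support. Adjustment over these 5 does not cover the other ratios that could have been formed. The *Kcnj8* to *Abcc9* ratio lay between 0.102 and 0.205 across CIE rats, with a median of 0.176, and between 0.199 and 0.272 across Control rats, with a median of 0.214, and 5 of 6 CIE rats lay below every Control rat. The difference in its mean log2 value was -0.48 (two-sided exact permutation test, p = 0.00649, 0.0108 after Benjamini-Hochberg adjustment over the 5 ratios). The pore subunit was lower in the CIE group also relative to its partner. The other KATP subunits, which neurons and endocrine cells use, did not pass the nominal threshold. *Abcc8* (SUR1) had a log2 fold change of 0.30 (SE 0.15, edgeR FDR 0.622) and *Kcnj11* (KIR6.2) of 0.04 (SE 0.15, edgeR FDR 0.961).

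*Pdgfrb*, the receptor through which pericytes are recruited, lay between 23.2 and 35.1 CPM across CIE rats, with a median of 27.4, and between 32.6 and 41.5 CPM across Control rats, with a median of 40.4. All CIE rats but rat 6 lay below every Control rat. The CIE mean was 28.1 ± 4.1 CPM and the Control mean 38.5 ± 3.82 CPM (SD, n = 6 each). The log2 fold change was -0.45 (SE 0.10), with an edgeR nominal p of 0.000369 and an FDR of 0.0758, which missed 5%. The exact permutation test gave p = 0.00649. With single rats left out the FDR ranged from 0.0131 without CIE rat 6, the only such fit past 5%, to 0.204 without Control rat 8, while DESeq2 gave 0.00454 and limma-voom 0.027 with all rats. Its ligand *Pdgfb* had a log2 fold change of 0.02 (SE 0.11, edgeR FDR 0.973). Across *Pdgfa*, *Pdgfb*, *Pdgfc*, *Pdgfd* and *Pdgfra*, 0 of 5 genes passed the nominal threshold in edgeR, and DESeq2 and limma-voom called 0 at 5% FDR. The lowest p was that of *Pdgfra*, the receptor of oligodendrocyte precursors and fibroblasts (log2 fold change -0.17, SE 0.10, edgeR FDR 0.703), followed by *Pdgfc* (0.21, SE 0.20, FDR 0.835).

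*Rgs5*, a regulator that shortens signals of G protein-coupled receptors and a common label of brain pericytes, lay between 17.6 and 26 CPM across CIE rats, with a median of 20.9, and between 23.6 and 29 CPM across Control rats, with a median of 26.2. Again CIE rat 6 alone reached the Control range. The log2 fold change was -0.30 (SE 0.09, edgeR nominal p = 0.00557, FDR 0.296), and the exact permutation test gave p = 0.013.

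*Vtn* encodes vitronectin, an adhesive protein of the extracellular matrix. It lay between 16.3 and 21.6 CPM across CIE rats, with a median of 19, and between 20.4 and 24.5 CPM across Control rats, with a median of 20.8, and as for *Rgs5* the exception among the CIE rats was rat 6. *Vtn* had a log2 fold change of -0.21 (SE 0.08, edgeR nominal p = 0.0213, FDR 0.484) and p = 0.0216 in the exact permutation test. It missed the nominal threshold in edgeR's test without CIE rat 1, Control rat 9 or Control rat 10, with a nominal p of at most 0.0637.

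*Anpep*, an aminopeptidase on the pericyte surface also known as CD13, lay between 2.38 and 4.06 CPM across CIE rats, with a median of 3.45, and between 3.45 and 5.66 CPM across Control rats, with a median of 4.5. Here the overlap came from CIE rat 4 and CIE rat 6, and 4 of 6 CIE rats lay below every Control rat. Of these, CIE rats 1 and 2 were barely below Control rat 12, all being 3.45 CPM when rounded. This gave a log2 fold change of -0.46 (SE 0.15, edgeR nominal p = 0.00878, FDR 0.359) with an exact permutation p of 0.00866.

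*Notch3*, the Notch receptor of mural cells, did not pass the nominal threshold. It lay between 32.2 and 64.5 CPM across CIE rats, with a median of 42.3, and between 33.1 and 53.7 CPM across Control rats, with a median of 42.7. The CIE rats spanned the Control range on both sides, with CIE rat 6 at the top. With a log2 fold change of -0.01 (SE 0.16, edgeR FDR 0.988) no difference was detectable, and its sign turned with the normalization, with covariates and with the rat left out. The ratio of *Pdgfrb* to *Notch3* counts was 0.545 to 0.793 in the CIE group (median 0.665) and 0.746 to 1.25 in the Control group (median 0.852). The log2 ratio differed by -0.43 between the groups (exact permutation p = 0.00649, 0.0108 adjusted over the 5 ratios). Of the other Notch pathway genes, 17 of 18 were tested and 2 passed the nominal threshold, both lower in the CIE group, with a median log2 fold change of -0.05 over the list. That share is near the 8.31% of all genes and is no result about the pathway. They were *Rbpj*, the DNA-binding partner of cleaved Notch (-0.22, SE 0.07, edgeR FDR 0.296), and *Dll4*, a ligand of endothelial cells (-0.62, SE 0.26, edgeR FDR 0.551), with nominal calls kept in 12 and 8 of 12 fits that left out a single rat. At 5% FDR limma-voom called *Rbpj* (FDR 0.046) and DESeq2 did not (FDR 0.196), and *Dll4* was called by neither. *Heyl*, a Notch target in mural cells named here after its values were seen, was at -0.02 (SE 0.14, edgeR FDR 0.984).

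*Acta2*, the actin of smooth muscle filaments, lay between 10.4 and 23.5 CPM across CIE rats, with a median of 12.8, and between 15.2 and 19.5 CPM across Control rats, with a median of 16.6. The other 5 CIE rats lay below every Control rat, and CIE rat 6 lay above every Control rat. Its log2 fold change was -0.25 (SE 0.17, edgeR p = 0.153, FDR 0.751; exact permutation p = 0.214). Without CIE rat 6 it was -0.45, with an edgeR nominal p of 0.000817 and an FDR of 0.0808, and the FDR reached 0.94 without CIE rat 1. Other actin genes encode proteins nearly identical to that of *Acta2*, and whether any reads were divided among these genes was not tested.

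*Tagln*, an actin-binding protein, lay between 11.6 and 24.8 CPM across CIE rats, with a median of 19.3, and between 13.2 and 19.4 CPM across Control rats, with a median of 17. The CIE rats were spread more widely than the Control rats, 3 of 6 above every Control rat and 1 below. For *Tagln* the log2 fold change was 0.14 (SE 0.16, edgeR p = 0.38, FDR 0.865; exact permutation p = 0.444). Set against *Tagln* within each rat, both *Acta2* and *Pdgfrb* were lower in the CIE group. The *Acta2* to *Tagln* ratio was 0.626 to 0.946 (median 0.771) in the CIE group and 0.884 to 1.21 (median 1.03) in the Control group, a log2 difference of -0.42 (exact permutation p = 0.00649, 0.0108 adjusted over the 5 ratios). For *Pdgfrb* to *Tagln* the ratio was 1.23 to 2.4 (median 1.46) against 1.78 to 3.13 (median 2.39), a log2 difference of -0.58 (exact permutation p = 0.0195, 0.0195 adjusted). The groups overlapped in each of the 5 ratios.

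**Figure D2:**
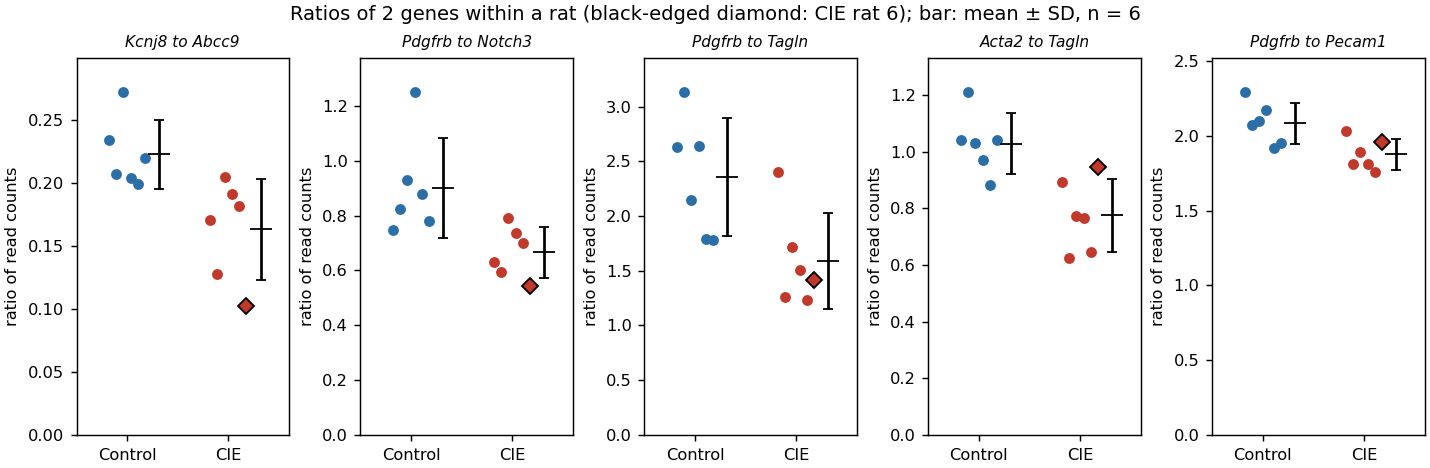
Ratio of the read counts of 2 genes within each rat (vertical axis, no unit, not corrected for gene length), in Control (blue) and CIE (red) rats. Bars give the mean ± SD (n = 6) and the black-edged diamond is CIE rat 6. The CIE medians lie below the Control medians in all 5 panels, from 0.176 against 0.214 for *Kcnj8* to *Abcc9* to 1.85 against 2.08 for *Pdgfrb* to *Pecam1*, and each panel shows overlap.

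CIE rat 6 had the highest CIE value in 7 of the 9 genes, all but *Kcnj8* and *Anpep*, whose highest CIE value was that of rat 4. The lowest CIE values were found in rat 1 for 4 genes, rat 5 for 3 and rat 3 for 2. In the Control group no rat led in more than 2 genes, while Control rat 11, the library with the lowest total, was lowest in 4 (*Rgs5*, *Kcnj8*, *Abcc9* and *Vtn*). Without CIE rat 6, 7 of the 9 genes passed the nominal threshold, *Acta2* being added, and 2 passed 5% FDR. Calls rose among all genes as well. In that fit 154 of 21093 genes passed 5% FDR and 1954 the nominal threshold, against 76 and 1740 of 20944 with all rats.

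**Figure D3:**
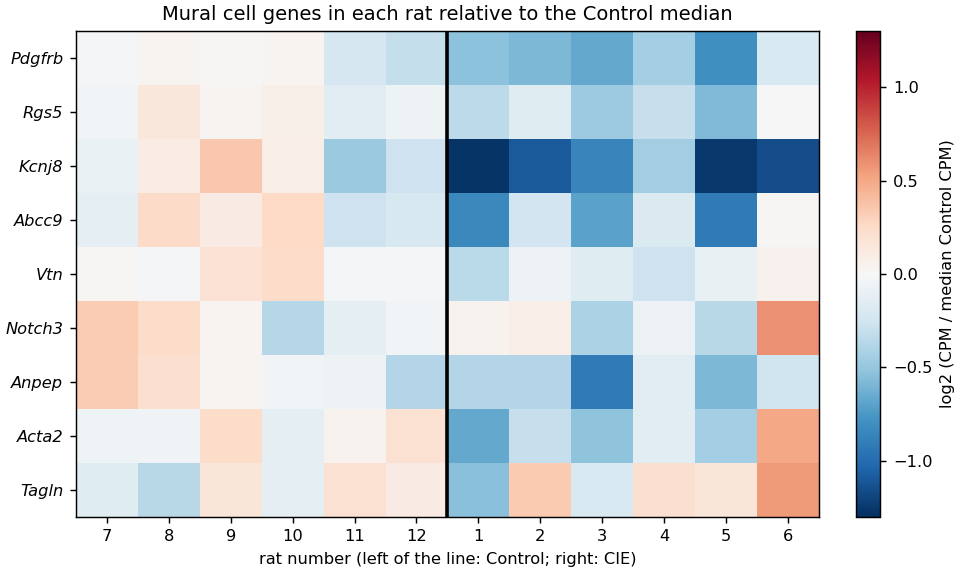
Level of each mural gene in each rat as log2 of CPM over the median Control CPM (colour, blue lower and red higher), with Control rats 7 to 12 left of the line and CIE rats 1 to 6 right of it. The *Kcnj8* row is blue in all CIE rats, and CIE rat 6 is red for *Notch3*, *Acta2* and *Tagln*.

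To see which mural genes varied together beyond the difference between the groups, the group means were removed from log2 CPM and all 36 pairs of the 9 genes were correlated over the 12 rats. Of these pairs, 33 had a positive r, with a median of 0.50, and 3 passed 5% after Benjamini-Hochberg adjustment over the 36 (permutation within groups, two-sided). How many pairs of other genes would have a positive r was not tested. The sign of r was not always shared by the groups of 6. For *Rgs5* and *Tagln*, r was 0.57 among CIE rats and -0.75 among Control rats. For *Abcc9* and *Tagln* it was 0.76 and -0.64. The 3 pairs that passed joined *Pdgfrb*, *Rgs5* and *Abcc9*, and their r was positive in both groups (0.82 to 0.88 among CIE rats, 0.79 to 0.95 among Control rats). For *Rgs5* and *Abcc9*, Pearson's r was 0.89 (permutation p = 0.00048, adjusted 0.0173) and Spearman's rho 0.83 (permutation p = 0.00597), and r was 0.81 without the 2 rats farthest from the median of *Rgs5*. For *Pdgfrb* and *Rgs5*, r was 0.84 (permutation p = 0.00219, adjusted 0.0263), rho 0.81 (permutation p = 0.00386) and r 0.63 without the 2 farthest rats. For *Pdgfrb* and *Abcc9*, r was 0.82 (permutation p = 0.00176, adjusted 0.0263), rho 0.85 (permutation p = 0.00066) and r 0.66 without those rats. The rats left out were CIE rats 5 and 6 in each case. With rho, only *Pdgfrb* and *Abcc9* passed 5% after adjustment over the 36 pairs (adjusted permutation p = 0.0238). The adjusted permutation p of rho was 0.0537 for *Rgs5* and *Abcc9* and also for *Pdgfrb* and *Rgs5*. When single rats were left out, the number of pairs ranged from 0, without CIE rat 5, CIE rat 6 or Control rat 11, to 5 without Control rat 10, and it was 1 without CIE rat 3, Control rat 8 or Control rat 9. With the other pericyte genes *Kcnj8* had an r of -0.08 to 0.54, the highest with *Abcc9* and the lowest with *Notch3* (r = -0.08, permutation p = 0.813; rho = -0.07, permutation p = 0.844; r = -0.08 without the 2 farthest rats). Among Control rats alone its r was 0.82 with *Abcc9*, 0.81 with *Rgs5* and 0.80 with *Pdgfrb*. It was 0.68 with *Vtn*, 0.39 with *Anpep* and 0.11 with *Notch3*. In the same order, r among CIE rats alone was 0.40, -0.01, 0.17, -0.29, 0.19 and -0.21. Each of these values rests on 6 rats, and the difference between the groups was not tested. The smooth muscle pair, *Acta2* and *Tagln*, had an r of 0.80 (permutation p = 0.0091, adjusted 0.0819), a rho of 0.79 (permutation p = 0.00554) and an r of 0.65 without CIE rats 1 and 6. This pair, named after its values were seen, did not pass 5% over the 36 pairs.

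**Figure D4:**
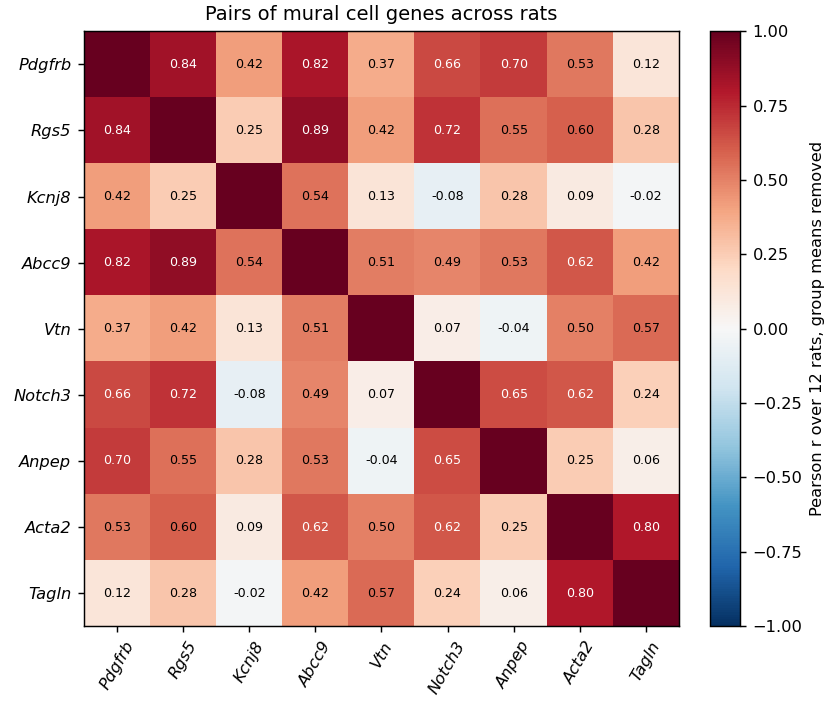
Pearson correlation between each pair of mural genes over 12 rats, on log2 CPM with the group means removed (colour and printed r). The block of *Pdgfrb*, *Rgs5* and *Abcc9* holds the highest values, 0.82 to 0.89, and *Acta2* with *Tagln* stands at 0.80.

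The genes outside the group whose rat-to-rat pattern was most like the mean profile of the 7 pericyte genes were *Vwf* (r = 0.96), LOC102554659 (0.93), *Bdh1* (0.92), *Pecam1* (0.91) and *Slc22a12* (0.90), over 12 rats and among 20935 genes compared, with the group means removed. *Vwf* and *Pecam1* are endothelial genes. *Vwf* had a log2 fold change of 0.05 (SE 0.19, edgeR FDR 0.968) and *Pecam1* of -0.31 (SE 0.09, edgeR FDR 0.233). For the profile of *Acta2* and *Tagln* they were *Uba7*, *Rmnd5a*, *Serping1* and *Des* (each 0.92) and LOC103690210 (0.89). *Des* encodes desmin, the intermediate filament of muscle. These correlations are descriptions, and the rats share libraries and depth across genes.

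Further pericyte genes were counted from a list of 19, of which 18 were tested. In edgeR's test 6 passed the nominal threshold, all lower in the CIE group, and 0 passed 5% FDR, with a median log2 fold change of -0.21. Over all genes, 8.31% passed the nominal threshold and 4.31% passed it with lower CIE levels. DESeq2 called *Cox4i2* at 5% FDR and not *Mcam*, and limma-voom called *Mcam* (FDR 0.0488) and not *Cox4i2* (FDR 0.0515). *Cox4i2*, a hypoxia-linked subunit of cytochrome c oxidase, lay between 0.6 and 1.25 CPM across CIE rats, with a median of 1.06, and between 1.3 and 2.09 CPM across Control rats, with a median of 1.98. Every CIE rat lay below every Control rat, and 0.893% of all genes were likewise without overlap, in either direction. Resting on 39 to 199 counts per rat, the log2 fold change was -0.87 (SE 0.19, edgeR FDR 0.0918; exact permutation p = 0.00216, the smallest possible). *Mcam*, the adhesion molecule CD146, lay between 26.2 and 54.6 CPM across CIE rats, with a median of 30.9, and between 37.8 and 62.6 CPM across Control rats, with a median of 49.9. Its highest CIE value was that of rat 6. It had a log2 fold change of -0.56 (SE 0.17, edgeR FDR 0.283). With single rats left out the FDR ranged from 0.0131 without CIE rat 6, the only such fit past 5%, to 0.594 without Control rat 8. The other 4 that passed the nominal threshold, named after their values were seen, were *Higd1b* (-0.48), the forkhead factors *Foxf2* (-0.46) and *Foxc1* (-0.36) that pericytes require, and the transporter *Slc6a20* (-0.33). When single rats were left out, *Slc6a20* kept its nominal call in 4 of 12 fits and the other 5 genes in 12 of 12. Not all pericyte genes were lower. *Cspg4* (NG2, also made by oligodendrocyte precursors) had a log2 fold change of 0.10 (SE 0.09, edgeR FDR 0.826), *Atp13a5* of 0.01 (SE 0.17, edgeR FDR 0.993) and *Tbx18* of -0.01 (SE 0.18, edgeR FDR 0.992).

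Further contractile genes were counted from a list of 18, of which 16 were tested. In edgeR's test 3 passed the nominal threshold, 2 with higher and 1 with lower CIE levels, 0 passed 5% FDR, and the median log2 fold change was 0.07. The share of all genes past the nominal threshold was 8.31%. DESeq2 and limma-voom each called *Lmod1* alone at 5% FDR. *Lmod1*, leiomodin 1, which nucleates actin filaments in smooth muscle, lay between 11.3 and 17.2 CPM across CIE rats, with a median of 13, and between 4.88 and 10.3 CPM across Control rats, with a median of 8.91. Every CIE rat lay above every Control rat, where 0.893% of all genes had no overlap in either direction. Here the log2 fold change was 0.77 (SE 0.19, edgeR FDR 0.153, DESeq2 FDR 0.00962; exact permutation p = 0.00216). The other gene that was higher, *Synpo2* (0.63, SE 0.27, edgeR FDR 0.554), binds actin in muscle. The gene that was lower, *Ppp1r14a* (-0.38, SE 0.15, edgeR FDR 0.51), encodes an inhibitor of myosin phosphatase. When single rats were left out, the nominal call was kept in 12 of 12 fits for *Lmod1*, 5 for *Synpo2* and 8 for *Ppp1r14a*.

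Of 14 vasoactive receptors and genes of cGMP signalling, 2 passed the nominal threshold in edgeR's test, both lower in the CIE group, with a median log2 fold change of -0.04 and 0 past 5% FDR in edgeR, DESeq2 or limma-voom. This share, too, is near the 8.31% of all genes. They were the endothelin receptor *Ednra* (-0.35, SE 0.13, edgeR FDR 0.475) and the sphingosine-1-phosphate receptor *S1pr3* (-0.31, SE 0.12, edgeR FDR 0.494), which kept their nominal call in 11 and 9 of 12 fits with a single rat left out. These lists were then taken with those of the PDGF, Notch and KATP genes above. Of 72 genes tested, 13 passed the nominal threshold (11 lower and 2 higher), against 8.31% of all genes. Past 5% FDR there were 0 in edgeR, 2 in DESeq2 and 3 in limma-voom, where the calls among all genes numbered 76, 294 and 234.

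**Figure D5:**
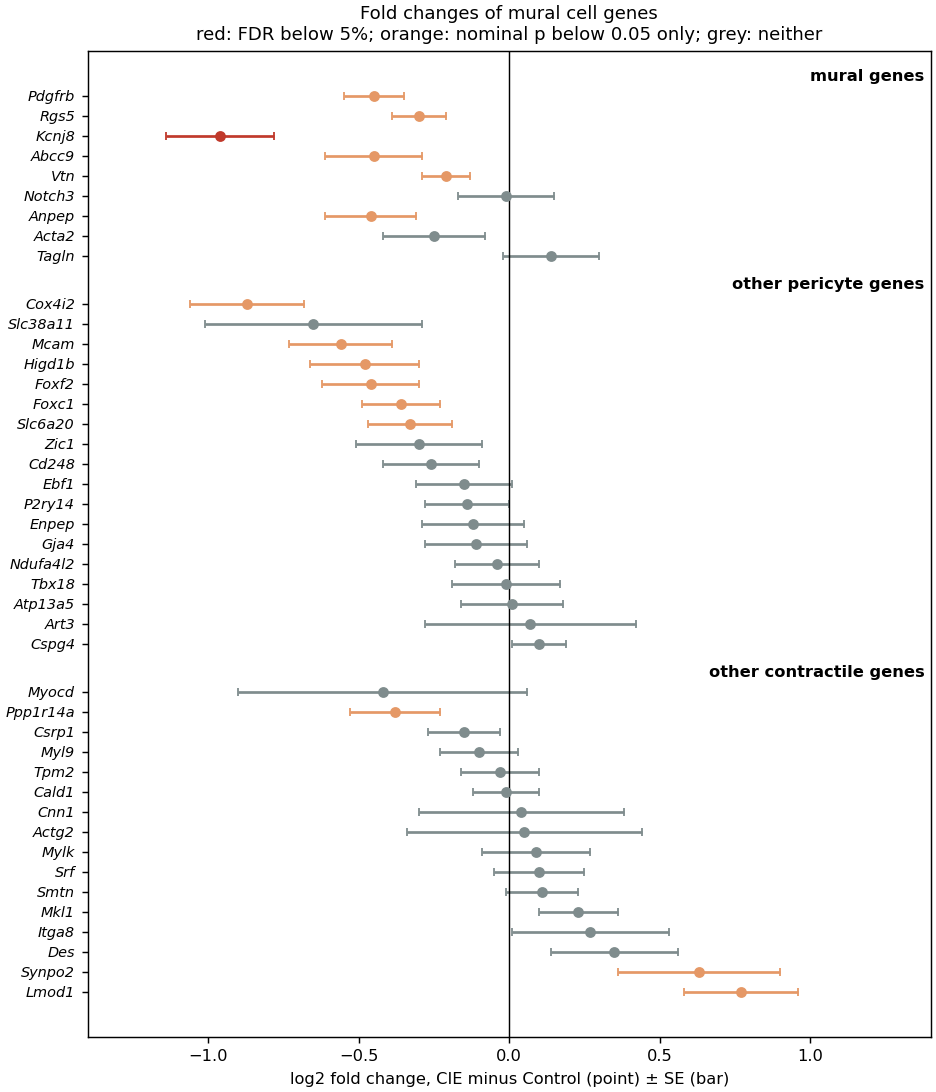
Log2 fold change (CIE minus Control, horizontal axis) ± SE from the edgeR fit for the 9 mural genes and the 18 further pericyte and 16 further contractile genes tested. Red marks FDR below 5%, orange a nominal p below 0.05 only, and grey neither. *Kcnj8* at -0.96 and *Cox4i2* at -0.87 lie farthest to the left, and *Lmod1* at 0.77 farthest to the right.

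Marker lists of other cells were counted in the same way, to be read against the 8.31% of all genes that passed the nominal threshold. Of 18 endothelial markers, 8 passed the nominal threshold in edgeR, 6 lower and 2 higher in the CIE group, and 0 passed 5% FDR (DESeq2 called 1, limma-voom 0). Their median log2 fold change was -0.17, and their summed level was 470 to 645 CPM across CIE rats and 511 to 610 CPM across Control rats. *Pdgfrb* was lower also relative to the endothelial gene *Pecam1*. The log2 ratio differed by -0.15 between the groups (exact permutation p = 0.0173, 0.0195 adjusted over the 5 ratios). No other endothelial gene was set against *Pdgfrb* in this way. Log2 fold changes of the 18 endothelial markers ran from -0.41 to 0.25, and that of *Pdgfrb* was -0.45, so the size of such a ratio depends on the endothelial gene chosen. With the mean endothelial level as a covariate, *Kcnj8* had a log2 fold change of -0.84 (edgeR FDR 0.165) and *Pdgfrb* of -0.32 (edgeR FDR 0.198), and 3 of the 9 mural genes passed the nominal threshold. In that fit 2236 of all 20944 genes passed it.

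Markers of fibroblasts of the meninges and perivascular space were lower in the CIE group where they passed. Of 10, 5 passed the nominal threshold, all lower, and 3 of these passed 5% FDR (*Col1a1*, *Col3a1* and *Igf2*), with a median of -0.47 and sums of 72.2 to 118 CPM across CIE rats and 122 to 186 CPM across Control rats. Fibroblasts also express *Pdgfrb* and *Anpep*. All 3 erythroid markers passed the nominal threshold and 2 passed 5% FDR, with a median of -1.61 and sums of 29.6 to 94.4 CPM against 127 to 220 CPM. Myelinating oligodendrocyte markers were lower at the nominal threshold in 8 of 8, with a median of -0.60, 0 past 5% FDR in edgeR (3 in DESeq2 and in limma-voom) and sums of 5494 to 13382 CPM against 8454 to 15817 CPM. With the oligodendrocyte level as a covariate, the log2 fold change of *Kcnj8* was -1.08 (edgeR FDR 0.165) and that of *Pdgfrb* -0.27 (edgeR FDR 0.428), and these 2 alone of the mural genes passed the nominal threshold. In that fit 2261 of all 20944 genes passed it. Other lists also held genes that passed the nominal threshold, all lower. They were 2 of 7 astrocyte, 1 of 6 microglial, 1 of 6 neuronal and 2 of 7 CeA neuron markers. Over all genes, 8.31% passed, and 4.31% passed with lower CIE levels. Counts of 1 or 2 genes are too few to be a result about these cells. Of the 6 neuronal markers only 2 had a lower CIE level at all, and their median log2 fold change was 0.06. Of the choroid plexus markers *Ttr* was listed at 0, *Folr1* and *Otx2* were too low to be tested, and *Clic6* did not pass the nominal threshold. The part of fibroblast or blood RNA in the mural results was not tested.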

How the data were processed

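RNA-Seq counts from CeA punches of 12 rats were analysed. Per the labels and the study's methods, RNA was isolated with the MagMAX kit (all RIN above 8.6), and poly-A libraries were sequenced in paired-end mode. The authors mapped reads to Rnor_6.0 with BWA, which does not split reads across introns, and HTSeq was used to count reads on genes. The deposited table holds these raw counts, without normalization or filter. The annotation release and the strand and overlap settings are not given in the sources used here. The submitters' processing notes also name DESeq2 1.26, and its results were not used. Each library stands for 1 rat.

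CIE and Control rats were compared with edgeR 4.0.16 (quasi-likelihood F test, TMM, filterByExpr, no covariate, two-sided), with Benjamini-Hochberg adjustment over all genes tested. SE was obtained as the log2 fold change over the root of the F statistic. CPM of single genes were compared with an exact permutation test over the rats. Pairs were tested with 100000 permutations within groups, on log2 CPM with a prior count of 1. Alternatives were run with DESeq2 1.42.0, limma 3.58.1 (voom with sample quality weights) and sva 3.50.0 under R 4.3.3. They comprised scaling by DESeq2 size factors or by library size only, a filter of at least 10 counts per rat or none, 1 surrogate variable, the endothelial or oligodendrocyte score as covariate, and each rat left out in turn. Other steps used Python 3.11.15 with scipy 1.17.1. The scripts were tested on simulated data. The members and the gene lists were chosen with earlier results of these data known. All members are named. From each list of related genes, genes past 5% FDR and otherwise the 2 with the lowest p are named, while *Higd1b*, *Foxf2*, *Foxc1*, *Slc6a20*, *Cspg4*, *Atp13a5*, *Tbx18*, *Synpo2*, *Pdgfb*, *Heyl* and the pair of *Acta2* and *Tagln* were named after their values were seen. Of the pairs, the 3 with the highest and the 1 with the lowest r are named by rule. For likeness, the 5 genes with the highest r to each profile are named. Sequences are from RefSeq (GRCr8), a build other than that of the counts.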

Additional observations from a re-analysis of the deposited data

Results flagged for a closer look

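Single rats stood apart from the other 5 rats of their group by Dixon's test at the 95% level in 5 of 42 groups examined, which covered the mural genes and the related genes named by rule. Chance gives such a gap in about 1 in 20 groups. In the CIE group, rat 6 was the highest in *Acta2* at 23.5 CPM (next rat 15.1), in *Mcam* at 54.6 CPM (next rat 34.8) and in *Rbpj* at 42.2 CPM (next rat 35.5). In the Control group, rat 10 was the highest in *Pdgfc* at 14.6 CPM (next rat 8.9) and rat 11 in *S1pr3* at 8.81 CPM (next rat 7.18). With the rat that stood apart left out, edgeR's quasi-likelihood test gave an FDR of 0.0808 for *Acta2*, 0.0131 for *Mcam*, 0.037 for *Rbpj*, 0.263 for *Pdgfc* and 0.804 for *S1pr3*. The log2 fold change of *Pdgfc* was then 0.43, against 0.21 with all rats. With any other rat left out, *Mcam* and *Rbpj* did not pass 5% FDR, and without Control rat 8 their FDR was 0.594 and 0.618.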

How the results depend on the processing

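Of 189 log2 fold changes of the mural genes under 21 alternatives, 181 kept their direction, and the 8 that did not were all those of *Notch3*. Its log2 fold change was 0.00022 with library size only, 0.10 with the endothelial and 0.25 with the oligodendrocyte covariate, and -0.16 to 0.06 with each rat left out. The difference in its mean CPM was 0.0157 with library size only and -4.63 to 1.83 with each rat left out. Mural genes past 5% FDR numbered 2 with DESeq2 and limma-voom, 0 with either covariate and 0 to 2 with each rat left out. At the nominal threshold they numbered 3 with the endothelial and 2 with the oligodendrocyte covariate, and 5 to 7 with each rat left out. Of the related genes, 2 passed 5% FDR with DESeq2, 3 with limma-voom and 0 to 2 with each rat left out. At the nominal threshold, 20 passed with limma-voom, 8 with the oligodendrocyte covariate and 8 to 17 with each rat left out, the lowest without Control rat 8. Of all 20944 genes, 3596 passed it with limma-voom, 2236 with the endothelial and 2261 with the oligodendrocyte covariate. The 8 of 72 related genes with the oligodendrocyte covariate are near that share and are no result about them. With each rat left out, 1347 to 2811 of all genes passed the nominal threshold and 34 to 154 passed 5% FDR. Pairs past 5% numbered 1 with library size only, 15 with the group means kept and 0 to 5 with each rat left out. The 5 ratios kept their direction and an exact permutation p below 0.05 without each rat, an alternative chosen after the values were seen. No paired analysis was possible because the groups are different animals and no label links a CIE rat to a Control rat. The study's methods state that the rats were housed in groups. The cage of each rat is not given in the sources used here, so cage was not taken into account in any test. The causes of these shifts were not tested. Low counts of *Kcnj8*, *Anpep* and *Cox4i2* limit their precision, and values listed at 0 in every rat, as for *Myh11*, allow no statement.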
